A study of Mus musculus with 12 samples.

Results

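Fkbp5, Tsc22d3, Sgk1, Fam107a, Zbtb16, Errfi1, Ddit4, Lpin1, Cited2 and Greb1 are 10 genes known as classic targets of the glucocorticoid receptor (GR). They were followed in mouse liver after an overload of iron and after dexamethasone (DEX), a synthetic glucocorticoid. The genes were taken by name, through the Ensembl identifiers of the count table, and they are 10 of the 55414 genes counted. All 10 passed the filter on low counts, which 13857 genes passed in all. Bulk RNAseq was performed on whole livers of 12 female C57BL/6J mice aged 8 to 12 weeks, in 4 groups of 3, which asked whether GR can still be stimulated once iron has acted. The NaCl/PBS mice received 0.9% NaCl and 6 h later PBS, the NaCl/DEX mice 0.9% NaCl and then 10 mg/kg DEX, the FeSO4/PBS mice 300 mg/kg FeSO4 and then PBS, and the FeSO4/DEX mice 300 mg/kg FeSO4 and then 10 mg/kg DEX. All injections were intraperitoneal, and livers were taken 2 h after the second injection, 8 h after the first. No genetic alteration was used, and the adrenal glands were in place, so that every mouse had its own corticosterone.

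GR is a nuclear receptor that waits in the cytosol in a complex with heat shock proteins and immunophilins. After a glucocorticoid has bound, it moves to the nucleus, binds palindromic response elements in the DNA as a dimer, and raises or lowers transcription. In the liver its targets govern gluconeogenesis, amino acid breakdown and lipid handling, and several of them limit inflammation or dampen the hormone signal itself.

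The libraries held between 16335651 and 23827340 counts. FeSO4/PBS mouse 1 stood apart from the other mice of its group, with a chi-square per gene of 89.5 and 71.4 against them, where all other pairs of mice within a group lay between 18.3 and 37.0. Values without it are given beside the results that it moved. The liver label was borne out by 7 hepatocyte markers, whose summed normalized counts were 1879880 to 2246600 in NaCl/PBS, 2294150 to 2603920 in NaCl/DEX, 2345430 to 2667340 in FeSO4/PBS and 2660240 to 2790940 in FeSO4/DEX mice. The sum was thus lowest in NaCl/PBS mice. It was mostly Alb, with a mean of 1626390 in NaCl/PBS and 1991800 in FeSO4/PBS mice. Cyp2e1 went the other way, from a mean of 105504 to 80962. Of the 7 markers 3 were called higher with FeSO4 alone, beside 27.2% of all tested genes, and 2 with DEX in NaCl mice, beside 6.5%. Markers of other cells were compared between FeSO4/PBS and NaCl/PBS mice, where 54.5% of all tested genes were called, 27.2% higher and 27.3% lower. All 6 Kupffer cell markers were called lower, with sums of 6353 to 7335 in NaCl/PBS and 3324 to 3929 in FeSO4/PBS mice. Of 6 neutrophil markers 4 were called higher, with sums of 114 to 279 and 701 to 870, and Ly6g was not tested. Erythroid markers were called in 1 direction only, with 2 of 3 higher, as were cholangiocyte markers, with 2 of 5. The means of the cholangiocyte markers Krt7 and Krt19 were lower, at 9.04 and 14.1 in FeSO4/PBS against 16.3 and 15.8 in NaCl/PBS mice. Endothelial and stellate cell markers were called in both directions. Of 6 endothelial markers 1 was called higher and 3 lower, and of 6 stellate cell markers 2 higher and 1 lower. Of 6 lymphocyte markers 1 was called lower, and Nkg7 was not tested. The part of these cells in the values below was not tested, and in whole liver fewer cells of a type and less RNA per cell cannot be told apart.

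DEX raised every classic target in NaCl mice. The 10 genes were chosen with earlier results of these data known, so their shares beside all tested genes are descriptions only. At an FDR of 0.05 or less in edgeR's quasi-likelihood test, 10 of 10 genes were called higher with DEX than with PBS, where 6.5% of all tested genes were called higher. In 10 of 10 the lowest DEX mouse was above the highest PBS mouse, as it was for 17.6% of all tested genes. Greb1 is counted in both, although it passed the filter on low counts only through its reads in NaCl/DEX mice. Its call and its order were thus favoured by the filter, as in its other comparisons with that group. The median log2 fold change (LFC) of the 10 genes was 2.22, beside -0.02 over all genes tested. The rises ranged from 1.67-fold for Cited2 to an LFC of 9.04 for Fam107a.

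**Figure D1:**
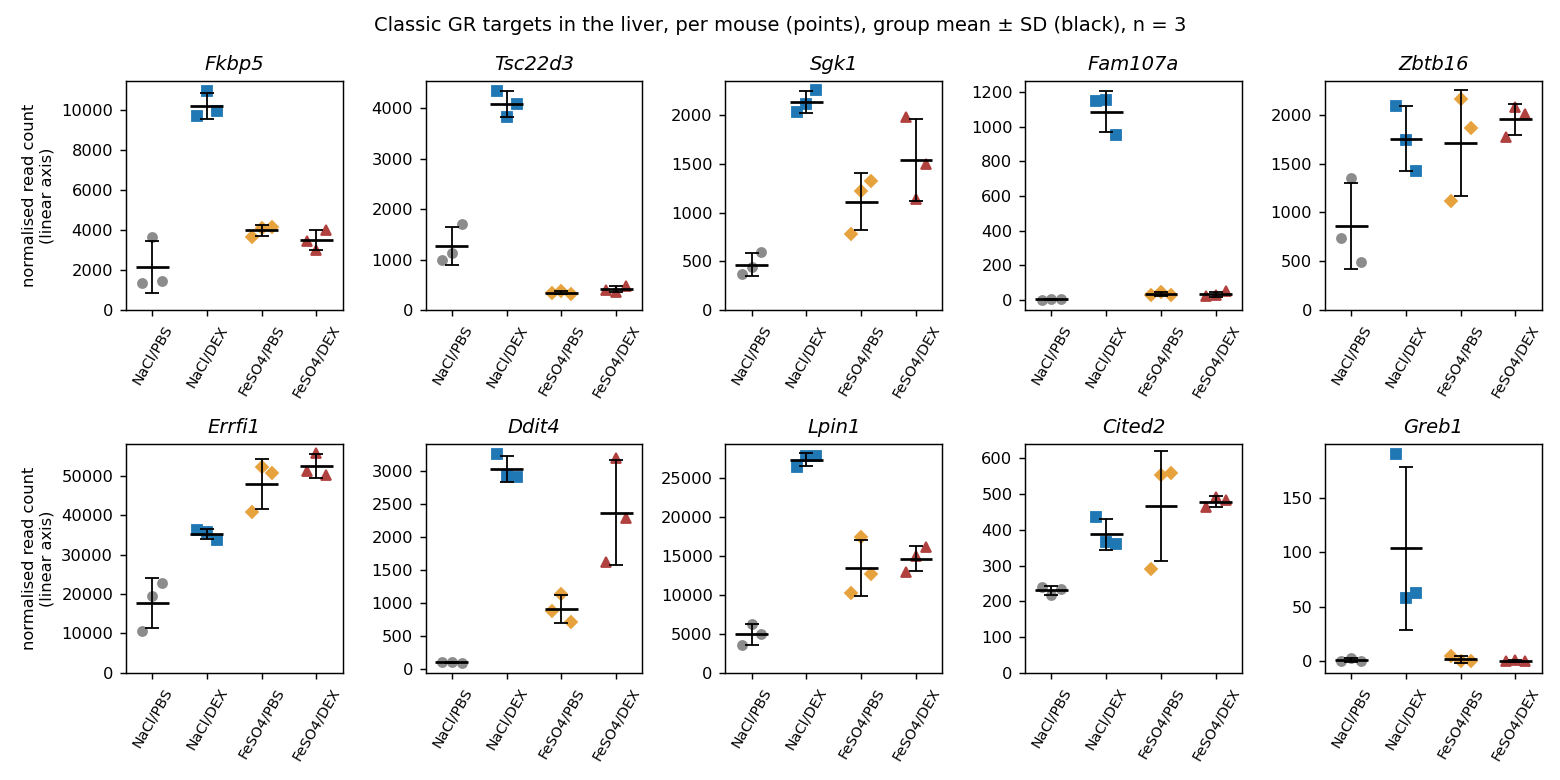
Normalized read count (linear vertical axis, 1 panel per gene) of the 10 classic GR targets in the 4 groups of mice. Coloured points are single mice, black bars the group mean and SD (n = 3). In every panel the 3 NaCl/DEX mice lie above the 3 NaCl/PBS mice. Fkbp5, Tsc22d3, Sgk1, Fam107a, Lpin1 and Greb1 stay below the lowest NaCl/DEX mouse in all 6 FeSO4 mice, whereas Errfi1 lies above the highest.

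The steepest rise was that of Fam107a, which encodes an actin-associated protein known to be induced by stress and glucocorticoids (ENSMUSG00000021750, GRCm39 chr14:14151750-14173507, plus strand). Without DEX the NaCl mice had 0, 2 and 5 reads of it, or 0, 1.87 and 4.23 normalized counts. In the NaCl/DEX mice the normalized counts were 1150, 1156 and 948. The gene thus went from near absence to a clear signal in all 3 mice. The LFC was 9.04 ± 0.41 (SE, n = 3 per group, FDR = 2.07e-08), and the ratio of the pooled reads, per effective library size, was 564 with a 95% counting interval of 274 to 1405. That interval covers counting error only.

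Greb1, named for its induction by estrogen in breast cancer cells, was the other gene that was almost silent without DEX (ENSMUSG00000036523, chr12:16720616-16851015, minus strand). Its reads were 0, 3 and 0 in NaCl/PBS mice and 177, 62 and 62 in NaCl/DEX mice. All DEX mice lay above all PBS mice, but NaCl/DEX mouse 1 was far above the others. The pooled ratio was 122 with a counting interval of 41.4 to 596, and the edgeR FDR was 0.000242. Per kilobase of transcript, Greb1 was the least abundant of the 10 genes in NaCl/DEX mice, at a mean of 0.62 RPKM, against 348 RPKM for Errfi1, the most abundant.

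Lpin1, which neighbours Greb1 on the same strand of chromosome 12 with 16702 bases between them, encodes a phosphatidate phosphatase that also acts as a transcriptional coactivator in fat oxidation (ENSMUSG00000020593, chr12:16584818-16703913). Its normalized counts were 3575, 6313 and 4968 in NaCl/PBS mice and 26474, 27867 and 27862 in NaCl/DEX mice. The rise was 5.53-fold (LFC 2.47 ± 0.21, FDR = 5.80e-06), and the DEX mice lay within a narrow range. Unlike its neighbour, Lpin1 was well expressed without DEX.

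Ddit4, which encodes REDD1, an inhibitor of mTORC1 that responds to stress and glucocorticoids, followed Fam107a and Greb1 in the size of its response (ENSMUSG00000020108, chr10:59785491-59788492, minus strand). It read 99.3, 104 and 95.6 in NaCl/PBS mice and 3251, 2921 and 2911 in NaCl/DEX mice. This was a 30.4-fold rise (LFC 4.93 ± 0.25, FDR = 3.65e-08) with hardly any spread in either group.

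Fkbp5 belongs to the feedback arm of the hormone and Tsc22d3 to its anti-inflammatory arm. Fkbp5 encodes a cochaperone that holds GR in a state of low hormone affinity (ENSMUSG00000024222, chr17:28618058-28737521, minus strand). Its normalized counts were 1341, 3654 and 1481 in NaCl/PBS mice and 9723, 10944 and 9940 in NaCl/DEX mice. NaCl/PBS mouse 2 was the high one in its group, and the rise was 4.73-fold (LFC 2.24 ± 0.29, FDR = 0.000143). Tsc22d3 encodes GILZ, an anti-inflammatory leucine zipper protein (ENSMUSG00000031431, chrX:139440091-139501408, minus strand). It read 995, 1136 and 1699 in NaCl/PBS mice and 4330, 3823 and 4090 in NaCl/DEX mice, a rise of 3.20-fold (LFC 1.68 ± 0.17, FDR = 2.16e-05).

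Sgk1 and Errfi1 act in kinase signalling. Sgk1 is a serine/threonine kinase that stimulates ion transport and is switched on by mineralocorticoids as well (ENSMUSG00000019970, chr10:21758083-21875802, plus strand). Its level went from 367, 445 and 591 normalized counts to 2029, 2112 and 2250, that is 4.56-fold (LFC 2.19 ± 0.23, FDR = 2.81e-05). Errfi1 encodes MIG6, a feedback inhibitor of the EGF receptor (ENSMUSG00000028967, chr4:150938376-150955402, plus strand). It was abundant already in NaCl/PBS mice, at 10559, 19555 and 22822, and stood at 36085, 35777 and 33664 in NaCl/DEX mice. The NaCl/PBS mice spread widely and the DEX mice did not, and the rise was 1.99-fold (LFC 1.00 ± 0.21, FDR = 0.00613).

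The transcriptional regulators showed the smallest rises along with Errfi1. Zbtb16 encodes the zinc finger repressor PLZF (ENSMUSG00000066687, chr9:48563141-48748664, minus strand). It read 739, 1351 and 499 in NaCl/PBS mice and 2093, 1737 and 1429 in NaCl/DEX mice, so that the lowest DEX mouse was only just above the highest PBS mouse (LFC 1.02 ± 0.30, FDR = 0.0359). Cited2 encodes a protein that binds the coactivators CBP and p300 and restrains HIF-1 (ENSMUSG00000039910, chr10:17598966-17601792, plus strand). It went from 241, 217 and 235 to 437, 366 and 359 (LFC 0.74 ± 0.20, FDR = 0.0211). These calls were the least stable. Each was lost when counts were scaled by library size alone (FDR = 0.0613 for Zbtb16 and 0.0645 for Cited2) and when any one of 4 single mice was left out, with an FDR of up to 0.130 for Zbtb16 and up to 0.0829 for Cited2. For Zbtb16 these were NaCl/PBS mice 1 and 3 and NaCl/DEX mice 1 and 2, and for Cited2 the 3 NaCl/PBS mice and NaCl/DEX mouse 1.

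The promoters were searched for the letters of the palindromic GR response element, since these bind the receptor directly. The core ACANNNTGT has 9 letters, where N is any base, and a 13-letter form adds GN before it and NC after it. Both patterns read the same on the 2 strands, and every 13-letter match contains the core. From 1000 bases before to 50 after the start of the canonical transcript (GENCODE vM39, GRCm39), the 13-letter form was present in 2 of the 10 genes, Fam107a and Sgk1, beside 1.69% of the promoters of 13819 tested genes. The core was present in 3 of 10, these and Tsc22d3, beside 23.7%. Of 30 other GR targets described further on, 3 held the 13-letter form and 6 the core. The stretches around the 3 matches are shown because they let the elements be compared by eye. The matching letters are in capitals, and each is written 5′ to 3′ on the strand of its gene:
Fam107a: ggtggcttGGACATGGTGTTCtgagtctc
Sgk1: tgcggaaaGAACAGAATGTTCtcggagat
Tsc22d3: gggctcatttACATGCTGTcacggccccg
The Fam107a stretch lies at chr14:14159868-14159896, and its match begins 118 bases before the start site. It overlaps an annotated exon of 1 transcript. The Sgk1 stretch lies at chr10:21869593-21869621, outside any annotated exon, with the match 964 bases before the start. The Tsc22d3 stretch, at chrX:139499873-139499901, has its match 336 bases before the start and overlaps annotated exons of 5 transcripts. The other 7 genes held neither form in this window, among them Greb1 and Ddit4, whose responses to DEX were the largest after that of Fam107a. Distant enhancers were not searched.

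FeSO4 on its own raised most of the same genes, without DEX. In FeSO4/PBS against NaCl/PBS mice, 8 of 10 were called higher and 1 lower by edgeR, where FeSO4 also changed a large part of the transcriptome, with 27.2% of tested genes higher and 27.3% lower. The lowest FeSO4/PBS mouse was above the highest NaCl/PBS mouse for 7 of the 10, beside 29% of tested genes, and the groups were apart in the other direction for 1, beside 31%. Tsc22d3 was the gene that fell, and Greb1 the one without a call. The median LFC of the 10 genes was 1.13, beside -0.02 over all tested genes. Counts of called genes without FeSO4/PBS mouse 1 were again 8 higher and 1 lower. Comparisons with NaCl/PBS share those 3 mice.

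Ddit4 and Fam107a had the largest increases after FeSO4 as well. Ddit4 read 875, 1138 and 708 normalized counts in FeSO4/PBS mice, 9.11-fold over NaCl/PBS (LFC 3.19 ± 0.23, FDR = 1.53e-07). Fam107a read 28.2, 44.8 and 28.1, an LFC of 4.05 ± 0.54 (FDR = 2.81e-05) and a pooled read ratio of 17.7 with a counting interval of 8.27 to 45.3. For both genes every FeSO4/PBS mouse was above every mouse of NaCl/PBS and below every mouse of NaCl/DEX.

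Lpin1, Sgk1 and Fkbp5 were raised more moderately. Lpin1 read 10304, 17404 and 12715 in FeSO4/PBS mice (LFC 1.44 ± 0.21, FDR = 5.33e-05). Sgk1 read 781, 1224 and 1326 (LFC 1.25 ± 0.23, FDR = 0.000386). The groups were apart for both genes, with FeSO4/PBS mouse 1 the lowest of its group. Fkbp5 read 3679, 4122 and 4175, which was only just above the highest NaCl/PBS mouse (LFC 0.89 ± 0.28, FDR = 0.0159). The Fkbp5 call was lost without NaCl/PBS mouse 1 (FDR = 0.0703) or mouse 3 (FDR = 0.0752), under scaling by library size alone (FDR = 0.0944), and narrowly in a fit to these 6 libraries alone (FDR = 0.05003).

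Errfi1, Cited2 and Zbtb16 rose after FeSO4 to group means near or above those of the NaCl/DEX mice. Errfi1 read 40717, 52268 and 50675 (LFC 1.44 ± 0.21 against NaCl/PBS, FDR = 7.49e-05). Cited2 read 290, 553 and 557 (LFC 1.01 ± 0.20, FDR = 0.000639), with FeSO4/PBS mouse 1 far below the other two. Without that mouse the Cited2 LFC was 1.27. Zbtb16 read 1113, 2159 and 1868 (LFC 0.99 ± 0.30, FDR = 0.0125), its groups overlapped, and its call was lost without NaCl/PBS mouse 1, NaCl/PBS mouse 3 or FeSO4/PBS mouse 2 (FDR = 0.0506, 0.0522 and 0.0543) and under scaling by library size alone (FDR = 0.066).

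Tsc22d3 took the opposite course. It read 351, 371 and 330 in FeSO4/PBS mice, below every NaCl/PBS mouse, and fell by 1.86 ± 0.18 on the log2 scale (3.64-fold lower, FDR = 1.47e-06). The direction and the call held when any of these mice was left out, with LFCs between -2.01 and -1.60. Greb1 had 5, 0 and 0 reads in FeSO4/PBS mice, a pooled ratio of 2.20 to NaCl/PBS with a counting interval of 0.43 to 14.2, so that a change was not detectable at this depth.

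**Figure D2:**
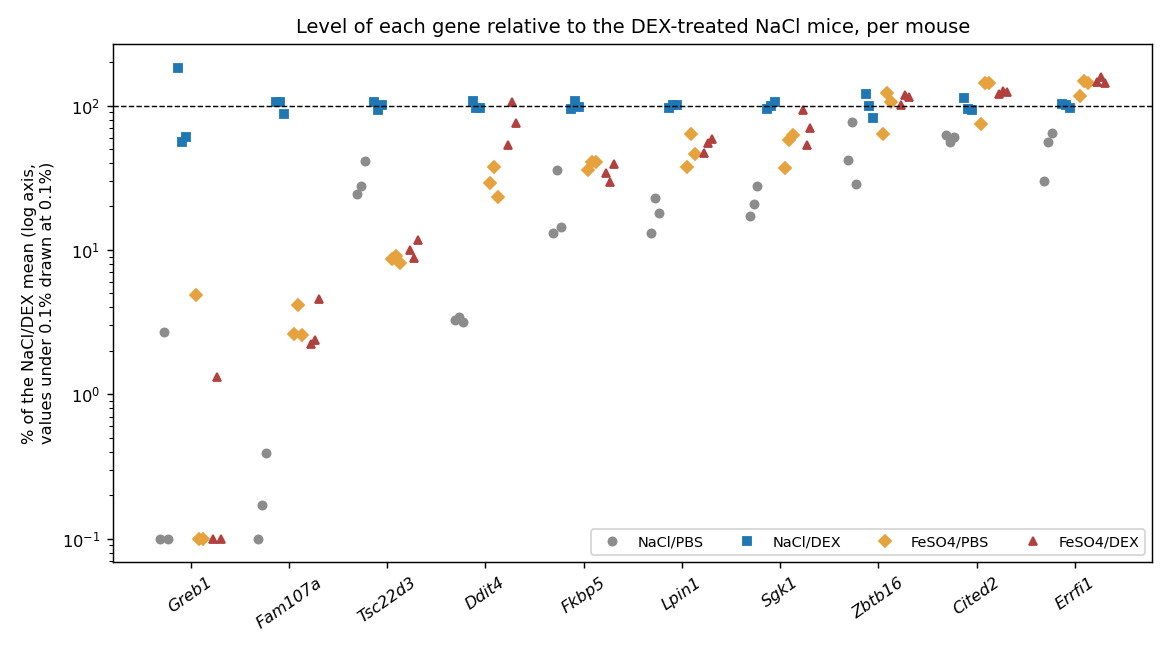
Level of each classic GR target in each mouse as a percentage of the mean of the NaCl/DEX mice (log axis, dashed line at 100%, values under 0.1% drawn at 0.1%). Genes are ordered by their mean in FeSO4/PBS mice, from 1.62% for Greb1 to 136% for Errfi1, and symbols mark the 4 groups. The FeSO4/PBS and FeSO4/DEX mice overlap within every gene apart from Ddit4.

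Set against the DEX level, the 10 genes thus did not respond to FeSO4 as 1 group. The mean of the FeSO4/PBS mice was 1.62% of the NaCl/DEX mean for Greb1, 3.11% for Fam107a and 8.60% for Tsc22d3. It was 29.96% for Ddit4, 39.1% for Fkbp5, 49.2% for Lpin1 and 52.1% for Sgk1. For Zbtb16, Cited2 and Errfi1 it was 97.7%, 121% and 136%. In the direct comparison of FeSO4/PBS with NaCl/DEX mice, edgeR called the first 7 of these genes lower, where 22.5% of tested genes were lower, and none of the 10 higher, where 23.8% were. The largest FDR of the 7 was 0.00331, for Sgk1. For Zbtb16 the LFC was -0.03 with a 95% confidence interval of -0.67 to 0.60, for Cited2 0.27 (-0.15 to 0.68), and for Errfi1 0.45 (-0.01 to 0.90). These 3 did not differ by the test, although every FeSO4/PBS mouse had more Errfi1 than any NaCl/DEX mouse, an order seen for 26.4% of tested genes. Without FeSO4/PBS mouse 1, Cited2 was called higher (LFC 0.51, FDR = 0.00207). Errfi1 was called higher in a fit to these 6 libraries alone (FDR = 0.0360) and without a filter on low counts (FDR = 0.0128). The fit without a filter took in 25013 genes and often gave far smaller FDRs at nearly equal LFCs. Its calls, here and below, are therefore weaker evidence than those of the other settings.

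DEX given 6 h after FeSO4 changed none of the 10 genes by the edgeR test, and 0% of all tested genes were called in FeSO4/DEX against FeSO4/PBS mice. At an unadjusted p under 0.05, 900 tested genes and 1 of the 10, Ddit4, differed. DESeq2 called 11 of all genes, 1 of them Ddit4, limma called 0, and edgeR called 170 when low counts were not filtered out, 99 higher and 71 lower, Ddit4 among them. The median LFC of the 10 genes was 0.13, beside 0.00479 over all genes tested.

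Ddit4 was the only gene of the 10 with more in every FeSO4/DEX mouse than in every FeSO4/PBS mouse, an order seen for 4.45% of tested genes. It read 1612, 3196 and 2278 normalized counts in FeSO4/DEX mice, against 875, 1138 and 708 in FeSO4/PBS mice. The mean was 2.60-fold higher, the LFC 1.38 ± 0.21 with a 95% confidence interval of 0.93 to 1.83, and the edgeR FDR 0.177 at an unadjusted p of 1.28e-05. Under other settings the FDR was 1.06e-05 in DESeq2 and 9.19e-18 in edgeR without a filter on low counts, at LFCs of 1.36 and 1.37. Thus the FDR without a filter fell far more than the LFC changed. It was 0.0116 without FeSO4/DEX mouse 1, the lowest of its group, and between 0.0774 and 0.996 elsewhere. In normalized counts DEX added 1455 ± 476 (SE) to Ddit4 in FeSO4 mice and 2928 ± 112 in NaCl mice, so that the added amount was 49.7% of that in NaCl mice.

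None of the other genes was called between these groups, and each overlapped. Sgk1 read 1980, 1142 and 1493 in FeSO4/DEX mice, overlapping the FeSO4/PBS mice, with an LFC of 0.47 (95% interval -0.0024 to 0.95, FDR = 0.762). Tsc22d3 read 407, 358 and 478, with an LFC of 0.24 (-0.14 to 0.62, FDR = 0.827), and stayed below every NaCl/PBS mouse even with DEX. Fkbp5 read 3480, 3020 and 4003, with an LFC of -0.19 (-0.79 to 0.41). These intervals lie below the smallest rise in NaCl mice that the 95% interval for the same gene allows, which was 1.69 for Sgk1, 1.31 for Tsc22d3 and 1.62 for Fkbp5.

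Fam107a remained at the low level that FeSO4 alone had given, with 24.2, 25.8 and 49.9 in FeSO4/DEX mice (LFC -0.03, interval -0.77 to 0.70). Greb1 had 0, 1 and 0 reads. Lpin1 read 12919, 14989 and 16139 (LFC 0.12, interval -0.31 to 0.56). For each of these genes the FeSO4/DEX mice overlapped the FeSO4/PBS mice. Errfi1, at 51064, 55800 and 50089, Zbtb16, at 1769, 2083 and 2002, and Cited2, at 463, 491 and 483, also overlapped, with LFCs of 0.13, 0.19 and 0.04. In normalized counts DEX added 4431 ± 4022 (SE) to Errfi1, 238 ± 326 to Zbtb16 and 11.8 ± 88.7 to Cited2 in FeSO4 mice. These amounts were 25.3%, 26.7% and 7.56% of those added in NaCl mice. Their intervals were not set against those in NaCl mice as for Sgk1, Tsc22d3 and Fkbp5. The FeSO4/PBS means of these 3 genes, 8 h after FeSO4, were 136%, 97.7% and 121% of the NaCl/DEX means. FeSO4/PBS mouse 1 was nevertheless below every NaCl/DEX mouse for Zbtb16 and Cited2. The level at 6 h, when DEX was given, was not measured, and its part in the DEX response was not tested.

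**Figure D3:**
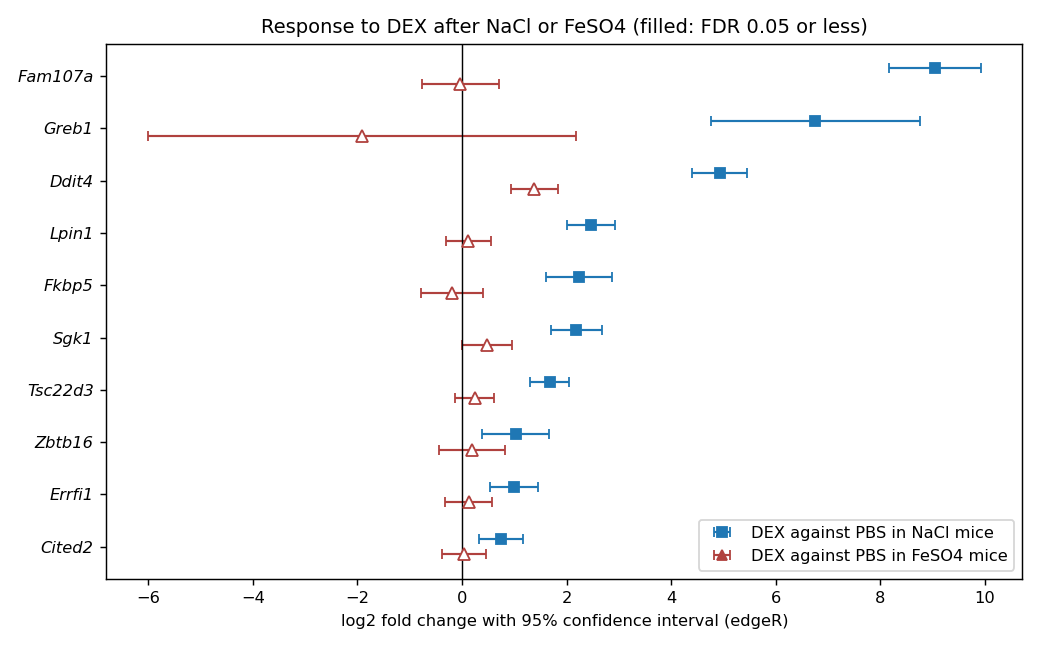
LFC after DEX with its 95% confidence interval (edgeR, horizontal axis) for each classic GR target in NaCl mice (blue squares) and FeSO4 mice (red triangles). Filled symbols have an FDR of 0.05 or less. All 10 squares are filled and none of the triangles is, and Ddit4 has the highest triangle at 1.38. The intervals of Greb1 rest on a handful of reads.

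On the log2 scale the DEX response differed between NaCl and FeSO4 mice for 7 of the 10 genes, all towards a smaller response after FeSO4. Of all tested genes edgeR called 3.2% in that direction and 2.99% in the other. An LFC is relative to the PBS level, which FeSO4 alone had raised for most of these genes. An equal added amount would then give a smaller LFC. In normalized counts the amount added by DEX in FeSO4 mice was 49.7% of that in NaCl mice for Ddit4 and 25.7% for Sgk1. It was 5.38% for Lpin1, 2.26% for Tsc22d3, -6.10% for Fkbp5, -1.20% for Greb1 and -0.034% for Fam107a. The difference of the LFCs was -9.08 ± 0.57 for Fam107a (FDR = 1.82e-06), -3.55 ± 0.31 for Ddit4 (FDR = 1.86e-05), -2.43 ± 0.40 for Fkbp5 (FDR = 0.00263) and -2.34 ± 0.29 for Lpin1 (FDR = 0.000347). For Sgk1 it was -1.72 ± 0.32 (FDR = 0.00564) and for Tsc22d3 -1.44 ± 0.24 (FDR = 0.00316). Greb1 was called as well (FDR = 0.0419), but the call was lost without any of 6 single mice, with an FDR of 0.984 without FeSO4/PBS mouse 1, the only one of its group with Greb1 reads, and by limma (FDR = 0.0830). Its fitted difference of -8.67 depends on how groups with almost no reads are treated. Greb1 also passed the filter only through the NaCl/DEX mice, which favours such a call.

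The 3 genes whose mean after FeSO4 alone was near or above that of NaCl/DEX had no call in this test. Their differences of the LFCs were -0.84 (95% interval -1.74 to 0.07) for Zbtb16, -0.87 (-1.51 to -0.23) for Errfi1 and -0.71 (-1.30 to -0.12) for Cited2, with edgeR FDRs of 0.283, 0.108 and 0.159. Without FeSO4/PBS mouse 1 the Cited2 difference was -0.999 (FDR = 0.00108). Zbtb16 was called without NaCl/PBS mouse 2 (FDR = 0.0360), and Errfi1 without NaCl/PBS mouse 3 (FDR = 0.0484) and by DESeq2 (FDR = 0.0375). All 3 were called when low counts were not filtered out, with FDRs of 0.000722 for Zbtb16, 0.000609 for Errfi1 and 0.0237 for Cited2. The LFCs hardly changed in that fit, so these calls add little.

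Among the mice that received DEX, those with FeSO4 had less of 5 of the 10 genes and more of 1, where edgeR called 20.9% of tested genes lower and 22.4% higher in FeSO4/DEX against NaCl/DEX. Tsc22d3 was 9.84-fold lower (LFC -3.30 ± 0.18, FDR = 4.33e-08), so that with DEX the FeSO4 mice had 10.1% of the GILZ transcript of the NaCl mice. Fam107a was 32.6-fold lower (LFC -5.03 ± 0.30, FDR = 5.14e-08). Fkbp5 was 2.91-fold lower (LFC -1.54 ± 0.29, FDR = 0.00062) and Lpin1 1.87-fold lower (LFC -0.90 ± 0.20, FDR = 0.00271). Greb1 was lower by a pooled read ratio of 263, with a counting interval of 46.8 to 10422. The interval is wide because the FeSO4/DEX mice had 1 read between them.

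Errfi1 was the gene with a higher level, 1.49-fold (LFC 0.57 ± 0.21, FDR = 0.0408), but the call was lost without any one of the 6 mice, with FDRs between 0.0683 and 0.132, and under scaling by library size alone (FDR = 0.168). For Sgk1 and Ddit4 the LFCs were -0.47 (FDR = 0.101) and -0.36 (FDR = 0.172). Sgk1 was called lower without FeSO4/DEX mouse 1 (FDR = 0.0287) and Ddit4 without FeSO4/DEX mouse 2 (FDR = 0.0114), the highest mouse of the group in each case. Both were also called lower under scaling by library size alone (FDR = 0.0371 and 0.0253) and without a filter on low counts (FDR = 0.00348 and 0.0299), and Sgk1 by limma (FDR = 0.0498) and in a fit to these 6 libraries alone (FDR = 0.0401). The levels of Ddit4 and Sgk1 in FeSO4/DEX mice were 78.0% and 72.2% of those in NaCl/DEX mice. Zbtb16 and Cited2 had LFCs of 0.15 and 0.31 without a call, and for Zbtb16 the sign turned under scaling by library size alone (-0.05).

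A list of 30 other known GR targets was set beside the 10. In NaCl mice DEX raised 17 of the 30 by the edgeR test, beside 6.5% of all tested genes, with a median LFC of 1.09. It lowered 1, Irs2, where 7.15% of all tested genes were called lower. In FeSO4 mice it changed 0 of 30, with a median LFC of 0.03 and 3 genes at an unadjusted p under 0.05. FeSO4 alone raised 21 of the 30, beside 27.2% of all tested genes, and lowered 3, namely Foxo3, Klf15 and Pck1, a smaller share than the 27.3% of all tested genes. Without FeSO4/PBS mouse 1 it raised 24 and lowered 3. The difference of the DEX responses was called for 8 genes with a smaller response after FeSO4, beside 3.2% of all tested genes, and for Irs2 in the other direction, beside 2.99%. The 8 became 12 without FeSO4/PBS mouse 1, 13 without NaCl/PBS mouse 2, 13 by DESeq2 and 18 when low counts were not filtered out.

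**Figure D4:**
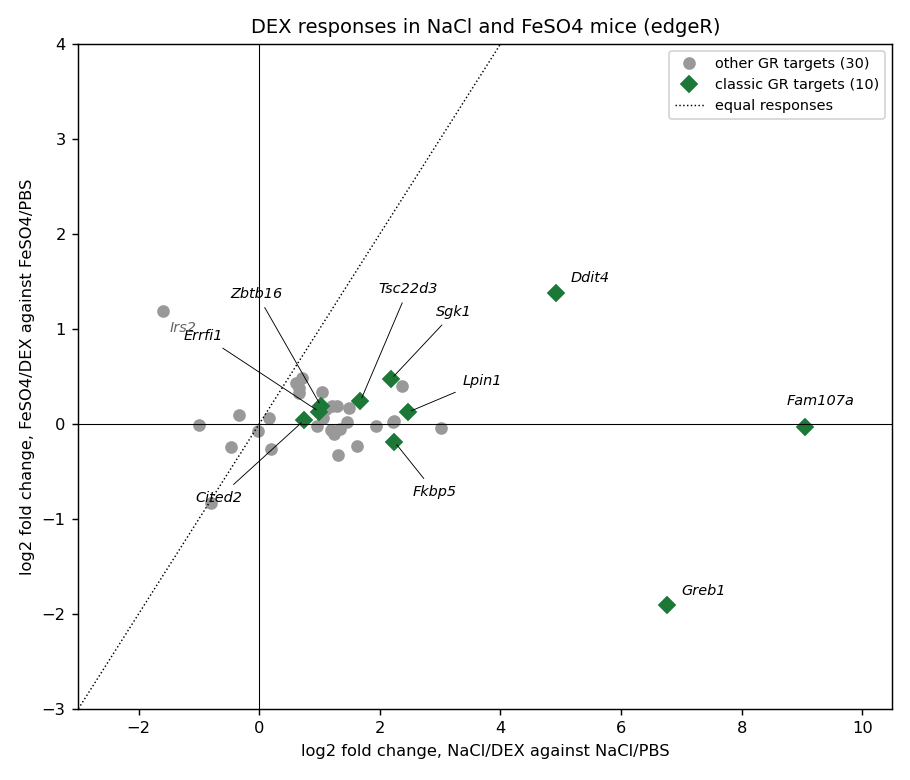
LFC after DEX in NaCl mice (horizontal axis) against that in FeSO4 mice (vertical axis) for the 10 classic GR targets (green diamonds) and 30 other GR targets (grey circles), edgeR. The dotted line marks equal responses. Most genes lie along the horizontal zero line, with Ddit4 at 1.38 above it and Irs2 on the left at -1.60 in NaCl and 1.19 in FeSO4 mice.

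Among the targets of this list with anti-inflammatory and feedback roles, 3 of 6 rose with DEX in NaCl mice, beside 6.5% of all tested genes. These were Dusp1, a phosphatase that switches off MAP kinases (LFC 1.93, FDR = 0.000766), Nfkbia, the inhibitor of NF-κB (LFC 1.11, FDR = 0.000332), and Zfp36, which speeds the decay of cytokine mRNA (LFC 0.67, FDR = 0.0145). FeSO4 alone raised the same 3 genes by LFCs of 2.37, 1.67 and 1.59, each with an FDR of 2.68e-05 or less. Their behaviour after FeSO4 was thus opposite in direction to that of Tsc22d3.

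Of 8 transcription factors 5 rose with DEX in NaCl mice, beside 6.5% of all tested genes. The LFCs were 3.02 for Hif3a, 1.49 for Cebpd and 1.29 for Cebpb, although Hif3a had at most 33 reads in any mouse. Of 9 genes of liver metabolism 5 rose and 1 fell, beside 6.5% and 7.15% of all tested genes. Tat, the tyrosine aminotransferase long used as a marker of GR activity in liver, rose 4.69-fold with DEX in NaCl mice (FDR = 5.35e-06) and 5.57-fold with FeSO4 alone (FDR = 2.51e-07). Its LFC after DEX in FeSO4 mice was 0.03, and FeSO4/DEX mice did not differ from NaCl/DEX mice by the test (LFC 0.28, FDR = 0.230). Igfbp1, an insulin-like growth factor binding protein, had LFCs of 2.37 with DEX and 4.61 with FeSO4 alone.

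Irs2, the adaptor of the insulin receptor, was the gene of the 30 called lower with DEX in NaCl mice (LFC -1.60 ± 0.41, FDR = 0.0178), and its LFC in FeSO4 mice was 1.19 without a call (FDR = 0.709). The call in NaCl mice was lost without NaCl/PBS mouse 2, NaCl/DEX mouse 1 or NaCl/DEX mouse 3. G6pc1, which encodes the enzyme that releases glucose from hepatocytes, had an LFC of -1.01 without a call (FDR = 0.148). Of the 7 remaining targets 4 rose with DEX in NaCl mice, beside 6.5% of all tested genes. Among them were Arrdc2, an arrestin-domain protein (LFC 2.22), Rasd1, a small G protein (LFC 1.62), and Mt2, a metallothionein (LFC 1.46). Arrdc2 resembled Tsc22d3 in that FeSO4 did not raise it, with a mean of 210 normalized counts in FeSO4/PBS against 258 in NaCl/PBS mice, and in that DEX did not change it in FeSO4 mice, where the mean was 212, against 1204 in NaCl/DEX mice.

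The receptor and its helpers were examined as 12 genes, comprising Nr3c1, the GR gene itself, Nr3c2, chaperones, steroid enzymes and cofactors. FeSO4 alone raised 5 of the 12 and lowered 2 by the edgeR test, beside 27.2% and 27.3% of all tested genes. DEX in NaCl mice raised 1, beside 6.5%, and DEX in FeSO4 mice changed 0. The counts of 2 and 1 are close to or below what those shares give for 12 genes. Nr3c1 read 2097, 1727 and 1912 in NaCl/PBS mice, 1646, 1368 and 1518 in NaCl/DEX mice, 796, 1218 and 1083 in FeSO4/PBS mice and 1247, 1049 and 1228 in FeSO4/DEX mice. All FeSO4 mice lay below all NaCl mice. With FeSO4 alone Nr3c1 fell by 0.89 ± 0.15 on the log2 scale (FDR = 0.000184), to a mean of 1032 ± 215 (SD) against 1912 ± 185 normalized counts. Without FeSO4/PBS mouse 1, the lowest, the LFC was -0.73 (FDR = 0.000277). Between FeSO4/DEX and NaCl/DEX mice its LFC was -0.36 (FDR = 0.0603), which passed the threshold by DESeq2 (FDR = 0.0440), by limma (FDR = 0.0291), under scaling by library size alone (FDR = 0.0110), when low counts were not filtered out (FDR = 0.0319) and in a fit to these 6 libraries alone (FDR = 0.0169).

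Fkbp4, the cochaperone that favours transport of GR to the nucleus and counters the product of Fkbp5, had an LFC of -0.29 with FeSO4 alone (FDR = 0.116) and -0.05 with DEX in NaCl mice. Hsd11b1, the enzyme that makes active glucocorticoid in hepatocytes, rose by 0.38 ± 0.15 with FeSO4 alone (FDR = 0.0411). None of these 3 genes was called between FeSO4/DEX and FeSO4/PBS mice.

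The 10 targets did not form 1 profile over the 12 libraries. Pearson's r of log2 CPM between pairs of them ranged from -0.41 for Tsc22d3 and Errfi1 to 0.94 for Fam107a and Lpin1. These are descriptions over 12 libraries that share 4 treatments. Among other genes with a mean of at least 100 normalized counts in their highest group, the profile nearest to Fam107a was that of Rbbp8 (r = 0.983) and then Tpst2 (0.978), and nearest to Lpin1 were Tcim (0.981) and Mpzl3 (0.972). Tsc22d3 was followed most closely by Tesk2 (0.980) and Aifm2 (0.976), and Fkbp5 by Pex11a (0.968) and Abhd13 (0.966).

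For Ddit4 the nearest were Nr1i2, which encodes the xenobiotic receptor PXR (0.975), and Insig2, a regulator of sterol synthesis (0.963). For Errfi1 they were Adamts15 (0.971) and Dusp1 (0.963), for Cited2 Ankrd33b (0.970) and Rapgef2 (0.966), and for Greb1 Sec23ip (0.974) and Chd1l (0.961). Sgk1 had Fam117b (0.948) and Herpud1 (0.941), and Zbtb16, with the weakest likeness of the 10, Hgsnat (0.930) and Arhgap32 (0.917).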

How the data were processed

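The authors prepared stranded mRNA libraries from total liver RNA, sequenced them single-end, ran FastQC, aligned the reads with STAR 2.7.10b to mm39 and an earlier GENCODE release, and let STAR count reads per gene. The deposited values are raw counts per Ensembl gene. Which strand was counted is not given in the sources used here, so reads of overlapping antisense genes may be included. Names and coordinates came from GENCODE vM39 on GRCm39 for 54749 of 55414 genes.

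The following was computed here with R 4.3.3 and edgeR 4.0.16. A quasi-likelihood model was fitted to the 12 libraries, in which each of the 4 groups had its own mean, on 13857 genes that edgeR's filter kept and with TMM scaling, and p-values were adjusted over all tested genes by the method of Benjamini and Hochberg. Normalized counts are TMM-scaled to the mean effective library size, RPKM use the canonical transcript length, and LFCs a prior count of 0.125. DESeq2 1.42.0, limma 3.58.1 with voom, other scalings and filters, a replicate block, fits to single comparisons and leaving out each mouse were alternatives. The scripts were tested on simulated data. Same-numbered mice did not pair, as the correlation of their deviations lay between -0.13 and 0.16. The labels call the 3 libraries of a group biological replicates, and no 2 libraries were alike within sampling noise. The number of mice limits the precision more than the depth does. An exact permutation test on 3 against 3 mice cannot go below p = 0.1, so no such test was used.

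The 10 genes, the other gene lists and the tests were chosen with earlier results of these data known. Named from the list of 30 were the genes with the 3 largest LFCs per role among those called after DEX in NaCl mice, and from the receptor list Nr3c1, Fkbp4 and Hsd11b1. Other genes of these lists, such as Foxo3, Klf15, Pck1 and G6pc1, were chosen for mention once their values were known, as was the grouping by level after FeSO4. For each of the 10 genes the 2 genes of highest Pearson's r were named, other than Rik and Gm genes. Promoters were read from GRCm39 with pysam 0.24.0.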

Additional observations from a re-analysis of the deposited data

Results flagged for a closer look

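The DEX response differed between FeSO4 and NaCl mice, by edgeR's test of the difference of the LFCs at an FDR of 0.05 or less, for the following genes. Among the 10 classic GR targets the difference, FeSO4 minus NaCl mice on the log2 scale, was -2.43 for Fkbp5, -1.44 for Tsc22d3, -1.72 for Sgk1, -9.08 for Fam107a, -3.55 for Ddit4, -2.34 for Lpin1 and -8.67 for Greb1. Among the 30 other GR targets it was -1.95 for Dusp1, -0.96 for Nfkbia, -1.10 for Cebpb, -1.02 for Foxo1 and -1.0001 for Foxo3. It was -2.20 for Tat, -1.35 for Tdo2 and -2.20 for Arrdc2, and 2.79 for Irs2. Groups of 3 are too small for Dixon's test of an outlying value, which was not run.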

How the results depend on the processing

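Over the alternatives to the fit as reported, the 10 classic targets kept their direction and their side of the FDR threshold in 811 gene, comparison and setting combinations, lost a call in 32, gained one in 21 and changed sign without a call in 12. The direction turned for DEX in FeSO4 mice under scaling by library size alone for Cited2 (-0.000757), and for FeSO4/DEX against NaCl/DEX for Zbtb16 (-0.0462). With single mice left out, the LFC after DEX in FeSO4 mice ranged from -0.236 to 0.181 for Cited2, from -0.454 to 0.232 for Fam107a, from -3.97 to 2.02 for Greb1, from -0.0592 to 0.350 for Lpin1 and from -0.0685 to 0.389 for Zbtb16. Greb1 in FeSO4/PBS against NaCl/PBS ranged from -2.93 to 3.93, and Zbtb16 in FeSO4/PBS against NaCl/DEX from -0.235 to 0.186. The cause was not tested.

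DESeq2 called 1309 genes for the difference of the DEX responses and edgeR 1459 when low counts were not filtered out, against 857 as reported. For DEX in FeSO4 mice these settings called 11 and 170 genes, against 0, and both called 1 classic target, Ddit4. limma called 2929 genes for DEX in NaCl mice, against 1892. Under scaling by library size alone 0 classic targets were higher in FeSO4/DEX than NaCl/DEX mice, against 1, and with at least 10 counts in every library 3 were lower, against 5, since 2 of the 10 were then not tested. For FeSO4/PBS against NaCl/DEX 1 was higher, against 0, both without a filter and in a fit to those libraries alone. Of the 30 other targets, the number with a smaller DEX response after FeSO4 was 13 by DESeq2 and 18 without a filter, against 8, and without a filter 2 had a larger one, against 1. Also without a filter, DEX raised 1 of the 30 in FeSO4 mice, against 0, and lowered 2 in NaCl mice, against 1. That fit took in 25013 genes, and its smaller FDRs are weaker evidence.

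With single mice left out, the genes called for the difference of the DEX responses numbered 537 to 1018, those for DEX in NaCl mice 1187 to 1506, and those for DEX in FeSO4 mice 0 to 1. Classic targets called higher were 0 to 1 for DEX in FeSO4 mice, 0 in all 6 such fits for FeSO4/DEX against NaCl/DEX, and 0 to 1 for FeSO4/PBS against NaCl/DEX, where the 1 appeared without FeSO4/PBS mouse 1. The 30 other targets gave 6 to 13 with a smaller response after FeSO4, 13 of them without NaCl/PBS mouse 2, and 0 to 2 lowered by DEX in NaCl mice.

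Scaling by library size alone moved the median LFC of all genes from -0.02 to -0.34 for FeSO4/PBS against NaCl/PBS, and the 10 classic targets had a median of 0.82 there, against 1.13. Same-numbered mice were not paired. With the replicate number as a block the difference of the DEX responses was called for 729 genes, against 857, and for 7 of the 10 classic targets as before.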
